A study of Mus musculus with 12 samples.

Results

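The genes described here mark the endothelial cells that line brain vessels and form the blood-brain barrier. They are 10 of the 19505 genes tested in the series: Cldn5, Ly6c1, Cdh5, Eng, Pecam1, Flt1, Kdr, Tek, Ocln and Slc2a1. They were taken by symbol, each had 1 transcript cluster on the array (the set of probes summarised as 1 value), and none was removed by a filter. No step selected endothelium: papain was used to release cells from white matter, an Fc receptor block came next, and magnetic beads against GLAST, the astrocyte glutamate transporter encoded by Slc1a3, picked the cells to keep. The groups were GnT-IX-deficient mice fed cuprizone for 12 weeks and wild-type mice fed it for 12, 3 or 0 weeks, all C57BL/6, with 3 arrays each, labelled as biological replicates. The diet held 0.2% (w/w) of this copper chelator, which kills oligodendrocytes, and began at 8 to 12 weeks of age. The 0-week mice, listed with the same age range, had no cuprizone. Time on the diet and age at sampling thus cannot be told apart. Neither GnT-IX-deficient mice off the diet nor wild-type mice kept off it for 3 or 12 weeks were analysed here. The allele, and whether mice were pooled for an array, are not given in the sources used here.

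Brain endothelial cells are sealed to each other by tight junctions, built from claudins and occludin, and held by adherens junctions, built from VE-cadherin. They take up glucose and other nutrients through carriers and expel drugs through efflux pumps. Their growth and quiescence are set by receptors for VEGF, angiopoietins and the TGF-beta family, and astrocyte endfeet cover their outer face.

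All values are log2 expression from the authors' RMA processing, and differences are on the same log2 scale, so a difference of 1 is a doubling. A gene is said to rise or fall where limma's adjusted p, over all 19505 genes, was at most 0.05. In a bulk sample, fewer cells of a type and less RNA per cell cannot be told apart. Because probes differ in brightness, levels are compared between arrays and not between genes.

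Mgat5b, which encodes GnT-IX, was at 3.70, 4.19 and 4.06 in the GnT-IX-deficient arrays, against 5.96, 5.88 and 5.57 in wild-type arrays at 12 weeks (difference -1.82, SE 0.21, adjusted p = 0.00159). Astrocyte markers (15 genes) averaged between 8.86 and 10.07 in the 12 arrays, whose medians were 5.38 to 5.45, and mature oligodendrocyte markers (10 genes) between 8.84 and 10.16. Slc1a3 averaged 7.27 ± 0.31 in GnT-IX-deficient arrays, 7.30 ± 0.28 in wild-type arrays at 12 weeks and 8.35 ± 0.44 at 0 weeks (SD, n = 3 each). Against 0 weeks, Slc1a3 fell by 1.35 at 3 weeks (adjusted p = 0.015) and by 1.08 in GnT-IX-deficient mice (adjusted p = 0.0396), and missed the threshold at 12 weeks in wild type (adjusted p = 0.0545). With 3 arrays a group, their number sets the precision.

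Promoter sequences are shown for 4 of the genes, 3 that rose at 12 weeks and Flt1, so that the letters near their start sites can be read beside the values. RefSeq windows (GRCm38.p6, 250 bases before to 50 after the annotated start, written 5′ to 3′ on the gene's strand) were at hand for 8 of the 10 genes. Cdh5 and Pecam1 had none. Capitals mark matches to the motifs searched on both strands, which were the ETS cores CCGGAAG and AGGAAG, the GATA site AGATAA, the SOX site ACAATGG, the TATA box TATAAA and the CCAAT box CCAAT.
Cldn5 (chr16:18776597-18776896, plus strand): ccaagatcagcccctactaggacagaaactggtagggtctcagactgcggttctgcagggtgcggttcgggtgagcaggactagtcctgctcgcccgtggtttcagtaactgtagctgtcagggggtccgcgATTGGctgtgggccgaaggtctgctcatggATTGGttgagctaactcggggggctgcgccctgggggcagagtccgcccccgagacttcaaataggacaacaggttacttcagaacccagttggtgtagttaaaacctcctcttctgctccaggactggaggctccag
Ly6c1 (chr15:75048614-75048913, minus strand): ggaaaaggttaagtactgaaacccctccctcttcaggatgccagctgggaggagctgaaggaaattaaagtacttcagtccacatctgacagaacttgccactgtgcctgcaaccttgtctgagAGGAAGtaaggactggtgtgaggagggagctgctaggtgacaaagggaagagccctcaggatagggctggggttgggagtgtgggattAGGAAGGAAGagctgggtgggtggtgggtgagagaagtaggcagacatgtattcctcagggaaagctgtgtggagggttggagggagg
Eng (chr2:32646345-32646644, plus strand): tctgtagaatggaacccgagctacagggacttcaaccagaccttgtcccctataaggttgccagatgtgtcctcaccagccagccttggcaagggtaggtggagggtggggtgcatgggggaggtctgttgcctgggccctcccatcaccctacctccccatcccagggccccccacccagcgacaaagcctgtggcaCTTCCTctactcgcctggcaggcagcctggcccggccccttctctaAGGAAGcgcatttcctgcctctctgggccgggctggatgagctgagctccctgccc
Flt1 (chr5:147725962-147726261, minus strand): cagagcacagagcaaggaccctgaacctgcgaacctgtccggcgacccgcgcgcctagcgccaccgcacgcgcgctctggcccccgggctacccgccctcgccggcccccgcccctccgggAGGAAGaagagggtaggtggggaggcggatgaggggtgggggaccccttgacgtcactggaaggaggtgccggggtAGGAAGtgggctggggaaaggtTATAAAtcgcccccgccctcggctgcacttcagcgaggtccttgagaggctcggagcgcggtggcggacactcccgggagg

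ETS factors such as ERG and FLI1 are known regulators of endothelial genes. The core AGGAAG lay in windows of Eng, Flt1 and Ly6c1, 3 of 8 genes (3 of 10 windows, as Ly6c1 and Ocln have 2 each), and in 35.4% of all 32851 promoter windows. The printed windows include all 3 with this core, so they are not a sample of the 10. The Ly6c1 window shown holds the core 3 times, with the last pair overlapping, and the other Ly6c1 window holds a TATA box and a CCAAT box. In Eng the first match is on the opposite strand. CCAAT, which stands 2 times in inverted form in the Cldn5 window, lay in windows of 4 of the 8 genes and in 37.4% of all windows. TATAAA lay in windows of Flt1, Ly6c1 and Slc2a1 and in 13.6% of all, AGATAA in that of Tek and in 11.2% of all. CCGGAAG (8.86% of all) and ACAATGG (3.66% of all) matched in none. Such matches are a description of these letters and show no binding. The Kdr, Ocln, Flt1 and Slc2a1 windows held 17 to 29 CG pairs, the Cldn5 window 12, the Eng window 6, the Tek window 3 and the Ly6c1 windows 0 and 1, against a median of 7 over all windows.

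The first comparison asked how these genes stood after 12 weeks of cuprizone against 0 weeks in wild-type mice. All 10 averaged higher at 12 weeks, and the 4 that rose were the tight junction gene Cldn5, the surface antigen gene Ly6c1, the adherens junction gene Cdh5 and the TGF-beta co-receptor gene Eng. These rises were 2.08- to 3.06-fold. Of all genes 2.11% rose in this comparison and 0.523% fell. In 8 of the 10 genes all 3 arrays at 12 weeks lay above all 3 at 0 weeks, which held for 10.8% of all genes. The median difference of the 10 was 0.93, against -0.013 over all genes. The genes were chosen with such results known, so these counts are a description of the set.

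Among junction genes, Cldn5, the main claudin of brain endothelium, was at 8.30, 8.13 and 8.07 in the 12-week arrays, against 6.69, 6.29 and 6.68 in the 0-week arrays. The groups lay far apart, with a gap larger than the spread in either, and the difference was 1.61 (SE 0.37, adjusted p = 0.0295). Cdh5, which encodes VE-cadherin, was at 7.23, 6.34 and 6.62 at 12 weeks, against 5.63, 4.93 and 5.39 at 0 weeks. It rose by 1.41 (SE 0.34, adjusted p = 0.0382), with replicate 1 the highest array in both groups. Ocln, which encodes the tight junction protein occludin and is also made by epithelia, was at 5.28, 5.02 and 5.34 at 12 weeks, against 4.70, 5.07 and 4.97 at 0 weeks. Its groups overlapped, and the difference of 0.30 (95% interval -0.17 to 0.77) did not pass (adjusted p = 0.593).

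Among surface antigens, Ly6c1, a GPI-anchored protein of endothelium that is also found on some leukocytes, was at 8.73, 8.10 and 8.91 at 12 weeks, against 7.52, 6.73 and 6.70 at 0 weeks. The 3 high arrays stood clear of the 3 low ones, and the difference was 1.60 (SE 0.40, adjusted p = 0.0472). This call ended with median centring (adjusted p = 0.0586), with trend and robust variance (0.0874) and with the replicate number as a block (0.0532). Its close paralog Ly6c2, a monocyte gene, may share probes with it, so the value of each is uncertain. Ly6c2 was at 5.24, 4.59 and 5.61 at 12 weeks, against 4.25, 4.14 and 4.26 at 0 weeks, a difference of 0.93 that did not pass (adjusted p = 0.0772). Pecam1, the junctional adhesion molecule shared by endothelium, platelets and some myeloid cells, was at 6.39, 5.92 and 5.82, against 5.28, 4.98 and 5.10. Its groups did not overlap either, but the difference of 0.92 (SE 0.25) missed the threshold (adjusted p = 0.0663).

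Among receptors, Eng, which encodes endoglin, was at 7.46, 7.34 and 7.23 at 12 weeks, against 6.44, 6.44 and 5.99 at 0 weeks. The 12-week arrays were close to each other and all above the 0-week ones, with a difference of 1.05 (SE 0.23, adjusted p = 0.0251). Kdr, the main signalling receptor for VEGF, was at 6.93, 6.71 and 6.80 at 12 weeks, against 5.70, 5.82 and 6.14 at 0 weeks. Flt1, a VEGF receptor that binds the ligand tightly and signals weakly, was at 7.21, 6.94 and 7.14, against 6.75, 6.35 and 5.97. Tek, the angiopoietin receptor, was at 4.99, 4.55 and 4.92, against 3.74, 3.77 and 4.31. None of these 3 receptor genes overlapped between the groups. Their differences of 0.93, 0.74 and 0.88 did not pass (adjusted p = 0.0747, 0.179 and 0.181). Tek was dim, below the lower quartile of the array in 3 of the 12 arrays, and RMA compresses the differences of dim genes.

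Slc2a1, the glucose carrier of barrier endothelium that astrocytes and other brain cells also make, was at 11.95, 11.34 and 11.68 at 12 weeks, against 11.38, 11.63 and 11.62 at 0 weeks. The groups overlapped, and the 95% interval of the difference ran from -0.30 to 0.53.

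**Figure D1:**
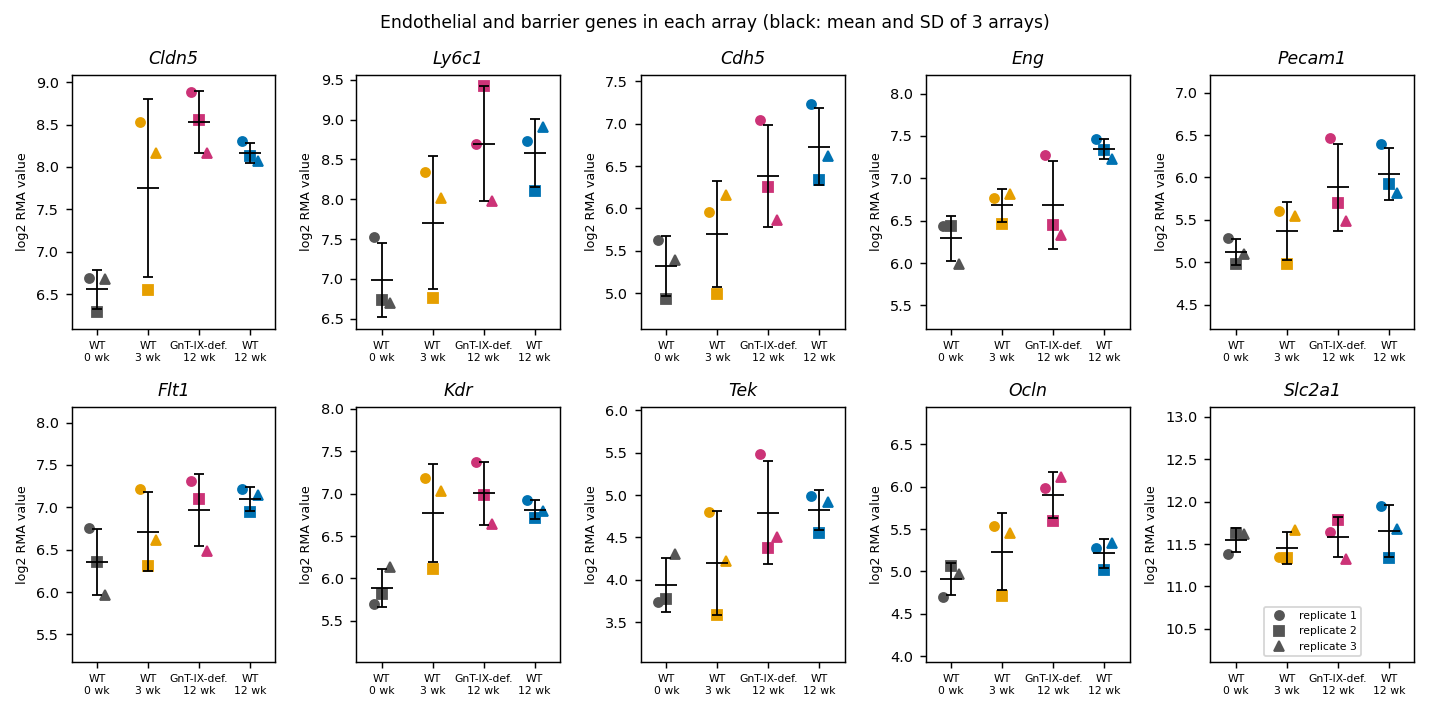
Log2 RMA values (vertical axes) of the 10 endothelial and barrier genes in each of the 12 arrays, by group. Points are arrays, shaped by replicate number, and black marks are the mean and SD of 3 arrays. Replicate 2 of the 3-week group is the lowest array of its group for all 10 genes, and Slc2a1 stays between 11.32 and 11.95 throughout.

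With a spread shared over all 12 arrays, the 4 calls at 12 weeks rested on all 6 arrays compared. Leaving out any 1 of them ended all 4, with adjusted p between 0.0558 and 0.190 and differences that stayed between 0.90 and 1.87. The same omissions left 77 to 504 of all genes called in either direction, against 514 with all arrays. Omitting arrays of the other groups was not tried for this comparison. In a fit of only the 6 arrays compared, the 4 genes had SE of 0.18 to 0.27, against 0.23 to 0.40 with all 12. Their adjusted p in that fit lay between 0.000498 and 0.00943.

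Endothelial genes outside the set were read from lists that the rule did not use. The lists were also chosen with earlier results of these data known, so their counts are a description and add no separate support. The list of other endothelial surface and identity genes holds Ly6c2, which may share probes with Ly6c1, and S1pr1, which astrocytes also make. Of its 31 genes measured, 3 rose at 12 weeks and none fell, with a median of 0.43 and 27 differences above 0. The 3 were Cd34, a sialomucin of endothelium and progenitors, at 7.77 ± 0.50 at 12 weeks and 6.01 ± 0.32 at 0 weeks (SD, n = 3 each, difference 1.76, adjusted p = 0.022), Ptprb, the VE-cadherin phosphatase (1.52, adjusted p = 0.0218), and Adgrf5, an adhesion receptor of endothelium (0.99, adjusted p = 0.0337). Of 20 other barrier transporters, 5 rose and none fell, with a median of 0.49. They included both genes of the efflux pump P-glycoprotein, Abcb1a at 7.97 ± 0.26 at 12 weeks and 6.48 ± 0.04 at 0 weeks (SD, n = 3 each, difference 1.48, adjusted p = 0.00926) and Abcb1b (1.03, adjusted p = 0.0295). The others named were the thiamine carrier gene Slc19a3 (1.20, adjusted p = 0.0344) and the cationic amino acid carrier gene Slc7a1 (0.98, adjusted p = 0.0271).

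Of 30 other genes of the VEGF, angiopoietin, TGF-beta and Notch systems, 3 rose and none fell at 12 weeks, with a median of 0.22. These were the VEGF co-receptor gene Nrp2 (1.00, adjusted p = 0.0271), the Notch ligand gene Dll4 of arterial and sprouting endothelium (0.96, adjusted p = 0.0336) and Tgfbr2, the type II TGF-beta receptor gene (1.04, adjusted p = 0.0467). Microglia also make Tgfbr2.

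The remaining vessel lists had medians between -0.14 and 0.075. Of 17 other junction genes, F11r, which encodes the junctional adhesion molecule JAM-A and is also made by platelets and leukocytes, rose by 2.18 (SE 0.41, adjusted p = 0.0115), and none fell. The median of that list was -0.14 (-0.013 over all genes), with 13 differences below 0 and 4 above. Of 10 leukocyte adhesion genes, Vcam1 was at 5.55 ± 0.14 at 12 weeks and 6.32 ± 0.11 at 0 weeks (SD, n = 3 each) and fell by 0.77 (adjusted p = 0.0447), and none rose. No gene passed among 14 genes of Wnt barrier induction (median 0.0033) or 12 of the vessel basement membrane (median 0.0067). The smallest p in each belonged to Wnt7b (-0.43, adjusted p = 0.284) and Sparc (0.65, adjusted p = 0.0557).

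**Figure D2:**
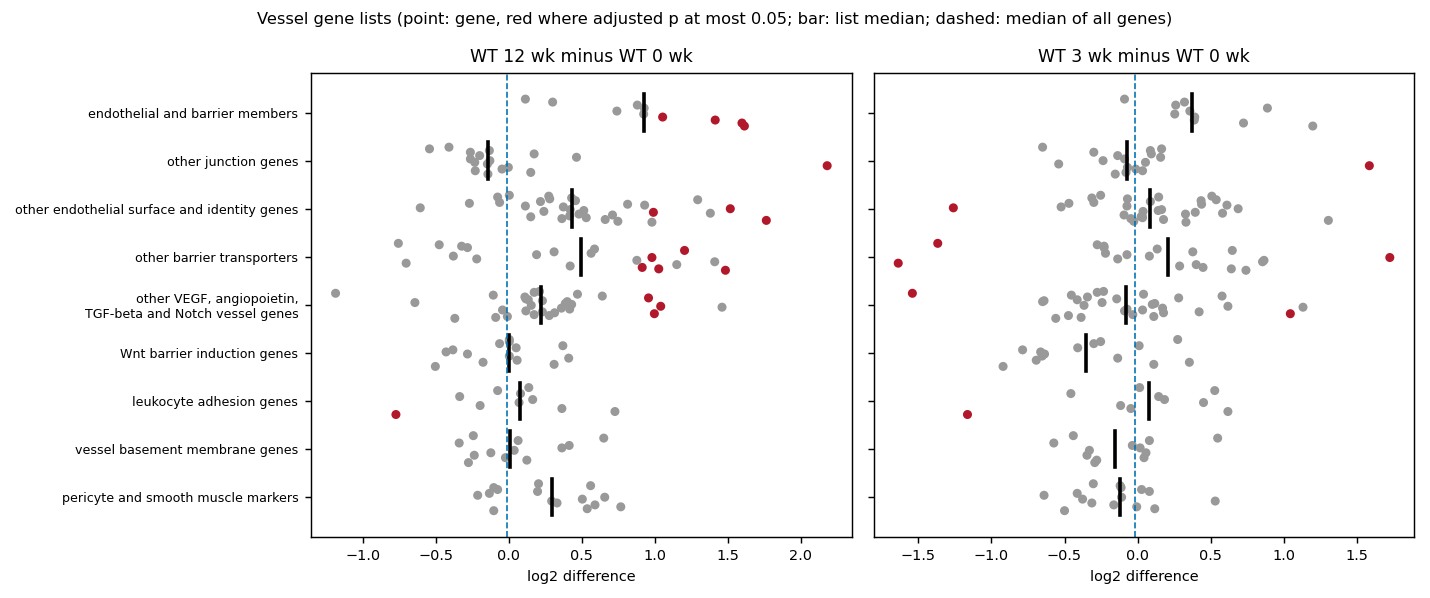
Log2 differences (horizontal axes) of vessel genes by list at 12 weeks (left) and 3 weeks (right) against 0 weeks in wild-type mice. Points are genes, red where adjusted p was at most 0.05, bars are list medians and the dashed line is the median of all genes. At 12 weeks the median is 0.93 for the 10 genes described, 0.49 for other barrier transporters and -0.14 for other junction genes.

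Markers of other cells moved beside these genes. Of 15 pericyte and smooth muscle markers, which mark the mural cells around the endothelium, none passed at 12 weeks, and their mean per array was 7.54 to 7.87 at 12 weeks, against 7.23 to 7.48 at 0 weeks. Microglia and macrophage markers, by contrast, rose in 11 of 13 cases, with array means of 7.84 to 8.96 at 12 weeks, against 5.05 to 5.61 at 0 weeks. Of 10 monocyte, neutrophil and lymphocyte markers 1 rose, the pan-leukocyte gene Ptprc (1.76, adjusted p = 0.0483), with array means of 3.76 to 4.11 at 12 weeks and 3.54 to 3.64 at 0 weeks. Of 9 fibroblast markers Igfbp2 fell (-1.28, adjusted p = 0.0251), and only 2 of 7 red blood cell markers were measured. Astrocyte markers averaged 9.17 to 9.65 per array at 12 weeks and 9.70 to 10.07 at 0 weeks. Of the 15, 14 averaged lower, with a median difference of -0.59 (-0.013 over all genes), and by the threshold 1 rose and 1 fell. Mature oligodendrocyte markers averaged 8.84 to 9.57 at 12 weeks and 9.67 to 10.04 at 0 weeks. Of those 10 genes, 9 averaged lower, with a median difference of -0.80 (-0.013 over all genes). The myelin glycoprotein gene Mag fell by 0.93 (adjusted p = 0.0374). Within the wild-type 12-week group, replicate 2 had the highest microglial mean (8.96) and the lowest mean of the 10 genes (7.04). Replicate 1 had the highest of both means at 3 weeks (8.83 and 7.13) and at 0 weeks (5.61 and 6.38). Among GnT-IX-deficient arrays, replicate 2 had the highest microglial mean (8.27) and replicate 1 the highest mean of the 10 genes (7.62). The part of any of these markers in the endothelial values was not tested.

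The second comparison set 3 weeks of cuprizone against 0 weeks. None of the 10 genes passed, where 3.24% of all genes did (1.61% higher and 1.63% lower). An unadjusted p under 0.05 was met by 2 of them, Cldn5 and Kdr, and by 16.1% of all genes. Of the 10, 9 averaged higher at 3 weeks, with a median difference of 0.37. The groups did not overlap for 1 gene, Eng, where 10.8% of all genes were higher without overlap.

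The 3-week arrays were unequal. Cldn5 was at 8.53, 6.55 and 8.17, Ly6c1 at 8.34, 6.76 and 8.02, and Kdr at 7.18, 6.11 and 7.03, in replicates 1, 2 and 3. Replicate 2 thus lay among the 0-week arrays for Cldn5, Ly6c1 and Kdr, while replicates 1 and 3 lay above them. It was the lowest of its group for all 10 genes, and its mean over them was 6.18, against 7.13 in replicate 1 and 6.97 in replicate 3. The SD over the 3 arrays accordingly reached 1.05 for Cldn5, while at 12 weeks it was 0.12 and at 0 weeks 0.23. Microglial means were 8.83, 6.91 and 6.49 and pericyte and smooth muscle means 6.97, 7.46 and 7.29 in replicates 1, 2 and 3. The part of either in the spread was not tested.

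Cdh5 was at 5.96, 4.99 and 6.16 at 3 weeks, Pecam1 at 5.60, 4.98 and 5.54, and Tek at 4.80, 3.58 and 4.22. These 3 genes showed the same low replicate 2, and their 3-week values overlapped with those at 0 weeks. Flt1 was at 7.22, 6.31 and 6.61, Eng at 6.77, 6.46 and 6.81, and Ocln at 5.54, 4.71 and 5.45. Slc2a1 was at 11.35, 11.34 and 11.67, within the range of the other groups. The differences from 0 weeks were 1.20 for Cldn5 (SE 0.37, adjusted p = 0.0976), 0.89 for Kdr (SE 0.26, adjusted p = 0.0793) and 0.72 for Ly6c1 (SE 0.40, adjusted p = 0.41), and the other 7 lay between -0.090 and 0.39. Without replicate 2 of the 3-week group, Cldn5 passed at 1.80 (SE 0.23, adjusted p = 0.00262) and Kdr at 1.22 (SE 0.22, adjusted p = 0.0127), and none of the other 8 did.

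**Figure D3:**
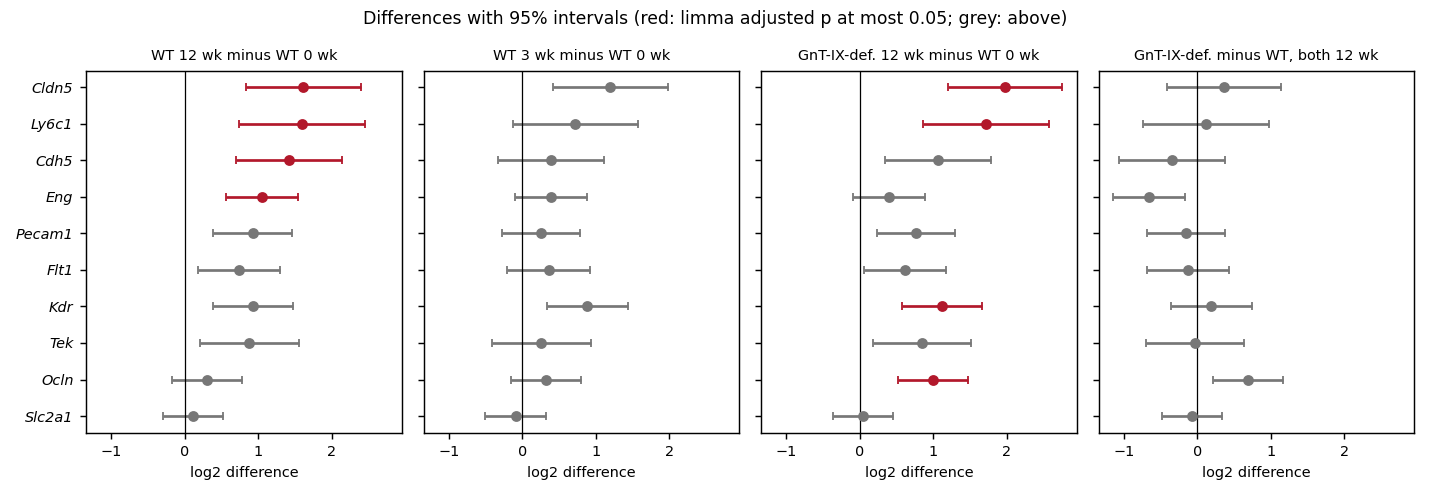
Log2 differences (horizontal axes) of the 10 genes with 95% intervals from the limma fit, in 4 comparisons. Red marks an adjusted p of at most 0.05 and grey a larger one. At 12 weeks Cldn5, Ly6c1, Cdh5 and Eng are red, at 3 weeks none is, and between the genotypes none is.

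Other vessel genes went both ways at 3 weeks. Of 20 barrier transporters, Slc7a1 rose by 1.72 (adjusted p = 0.00119), while Slco1c1, a thyroid hormone carrier of endothelium and astrocytes, fell by 1.64 (adjusted p = 0.0177) and Mfsd2a, the lipid carrier that restrains transcytosis, fell by 1.37 (adjusted p = 0.0177). Of 31 endothelial surface and identity genes, only S1pr1 passed, a sphingosine-phosphate receptor gene that astrocytes also make, and it fell by 1.26 (adjusted p = 0.00587). Nrp2 rose by 1.04 (adjusted p = 0.02) and Apln, the apelin gene, fell by 1.54 (adjusted p = 0.0131) among the 30 receptor and ligand genes. Vcam1 fell by 1.16 (adjusted p = 0.00471) and F11r rose by 1.58 (adjusted p = 0.0482). Array means of astrocyte markers lay between 8.88 and 9.29 at 3 weeks and between 9.70 and 10.07 at 0 weeks, with 9 of 15 falling and 1 rising. Among microglial markers 9 of 13 rose. Their part in these falls and rises was not tested.

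The third comparison set 12 weeks against 3 weeks in wild-type mice, with the 3-week arrays as unequal as described. None of the 10 genes passed, and 0.082% of all genes did. An unadjusted p under 0.05 was met by 4 of them and by 11.4% of all genes. The 4 genes were Cdh5 (1.03, SE 0.34), Pecam1 (0.67, SE 0.25), Eng (0.66, SE 0.23) and Ly6c1 (0.87, SE 0.40), with adjusted p of 0.24 to 0.423. Of these, Cdh5, Pecam1 and Eng did not overlap between 12 and 3 weeks, which held in that direction for 7.83% of all genes. Kdr differed by 0.040 (95% interval -0.51 to 0.59) and Cldn5 by 0.42 (-0.36 to 1.20). Without replicate 2 of the 3-week group those 2 differences were -0.29 and -0.18, still with no call.

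The fourth comparison asked whether loss of GnT-IX changed these genes after 12 weeks of cuprizone. None of the 10 passed, and 5 of all genes (0.0256%) did. An unadjusted p under 0.05 was met by 2 of the 10, Ocln and Eng, and by 6.99% of all genes. The median difference of the 10 was -0.052, with 4 above 0 and 6 below. Cldn5 was at 8.88, 8.55 and 8.16 in the GnT-IX-deficient arrays, against a wild-type mean of 8.17 ± 0.12 (SD, n = 3). Ly6c1 was at 8.69, 9.42 and 7.98, against 8.58 ± 0.43, and Cdh5 at 7.04, 6.25 and 5.86, against 6.73 ± 0.46 (SD, n = 3 each). All 3 genes overlapped between the genotypes, and their 95% intervals ran from -0.42 to 1.14, from -0.74 to 0.97 and from -1.07 to 0.37. Changes of about 2-fold thus lie inside some of these intervals.

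Eng was at 7.28, 6.45 and 6.33 in GnT-IX-deficient arrays, against 7.46, 7.34 and 7.23 in wild-type arrays at 12 weeks. Replicates 2 and 3 lay near the level of wild-type mice at 0 weeks and replicate 1 near that at 12 weeks. The difference of -0.66 (SE 0.23) had an unadjusted p of 0.0121 and an adjusted p of 0.584. Pecam1 was at 6.46, 5.70 and 5.49, Flt1 at 7.31, 7.10 and 6.49, Kdr at 7.38, 6.99 and 6.64 and Tek at 5.49, 4.38 and 4.50. Replicate 1 was the highest GnT-IX-deficient array for 7 of the 10 genes and replicate 3 the lowest for 8. Slc2a1 was at 11.64, 11.79 and 11.32, with a difference of -0.073 (95% interval -0.49 to 0.34).

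In the GnT-IX-deficient arrays Ocln was at 5.99, 5.60 and 6.12, against 5.28, 5.02 and 5.34 in wild-type arrays at 12 weeks. It was the only one of the 10 that did not overlap between the genotypes, which held in that direction for 5.27% of all genes. The difference of 0.69 (SE 0.22) had an unadjusted p of 0.00732 and an adjusted p of 0.511. Ocln is also a gene of choroid plexus epithelium, whose markers (10 genes) averaged 8.56, 7.49 and 5.93 in the GnT-IX-deficient arrays, against 5.06 to 5.75 in wild-type arrays at 12 weeks. Replicate 3 had the lowest choroid plexus mean of the GnT-IX-deficient arrays (5.93), still above those wild-type arrays, and the highest Ocln (6.12). Replicate 1, with the highest choroid plexus mean (8.56), had Ocln at 5.99. Ependymal markers (7 genes) averaged 7.25 to 8.41 in GnT-IX-deficient arrays and 6.80 to 7.18 in wild-type arrays at 12 weeks. Pericyte and smooth muscle markers averaged 7.16 to 7.52, against 7.54 to 7.87, with none of 15 passing, and microglial markers 7.17 to 8.27, against 7.84 to 8.96, with none of 13 passing. Their part in the values of these genes was not tested.

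**Figure D4:**
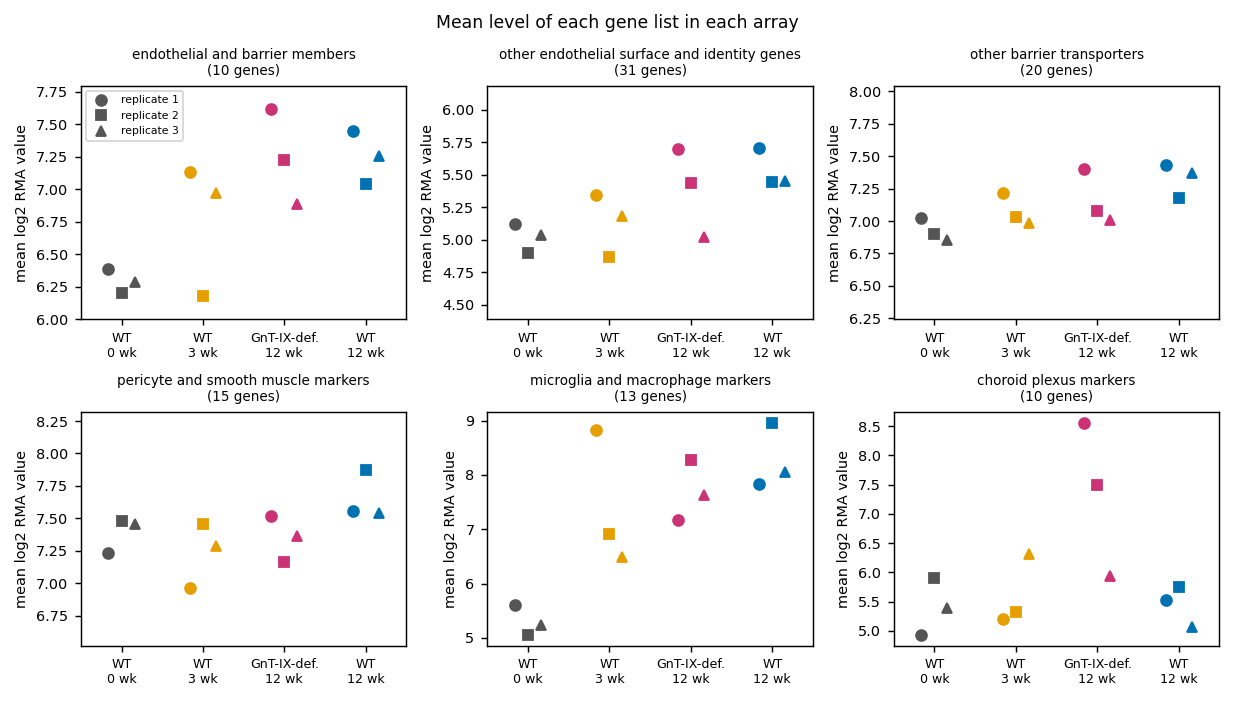
Mean log2 RMA value (vertical axes) of 6 gene lists in each array, by group, with points shaped by replicate number. The 10 endothelial and barrier genes average 6.89 to 7.62 in GnT-IX-deficient arrays, 7.04 to 7.45 in wild-type arrays at 12 weeks and 6.20 to 6.38 at 0 weeks. Choroid plexus markers are highest in 2 GnT-IX-deficient arrays, at 8.56 and 7.49.

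GnT-IX-deficient arrays at 12 weeks were also set against wild-type arrays at 0 weeks, a contrast that mixes genotype with time on the diet. It shares its 0-week arrays with the comparisons of 12 and 3 weeks, so these values stand beside those and do not add separate support. Here 4 of the 10 genes rose and none fell, where 2.41% of all genes rose and 1.7% fell: Cldn5 (1.98, SE 0.37, adjusted p = 0.0117), Ly6c1 (1.71, SE 0.40, adjusted p = 0.0297), Kdr (1.12, SE 0.26, adjusted p = 0.0279) and Ocln (0.99, SE 0.22, adjusted p = 0.0254). Cdh5 (1.07, adjusted p = 0.0843), Pecam1 (0.76, adjusted p = 0.0924) and Eng (0.40, adjusted p = 0.341) did not pass. In 7 of the 10 all 3 GnT-IX-deficient arrays lay above all 3 arrays at 0 weeks, against 12% of all genes. Without replicate 1 or 2 of the 0-week group none of the 4 calls held, and without replicate 2 of the GnT-IX-deficient group only Ocln was called.

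Other vessel genes in that contrast gave 5 rises and 1 fall among 20 barrier transporters, with Slc19a3 at 1.32 (adjusted p = 0.02), Abcb1a at 1.19 (adjusted p = 0.0251), Slc7a1 at 0.99 (adjusted p = 0.0229) and Mfsd2a at -1.47 (adjusted p = 0.0139). Among 31 surface and identity genes Itm2a, a membrane protein gene of brain endothelium, rose by 1.51 (adjusted p = 0.0112) and S1pr1 fell by 0.93 (adjusted p = 0.0291). F11r rose by 2.11 (adjusted p = 0.0139), and Wnt7b, a ligand that induces barrier properties, fell by 0.78 (adjusted p = 0.0309). Markers of the choroid plexus rose in 3 of 10 cases, ependymal markers in 2 of 7 and microglial markers in 11 of 13, while 8 of 15 astrocyte markers fell and 1 rose. Their part in the 4 calls was not tested.

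The order of the 4 group means was the same for 5 genes, Cdh5, Eng, Pecam1, Flt1 and Tek: wild type at 12 weeks, then GnT-IX-deficient at 12 weeks, then wild type at 3 and at 0 weeks. For Cldn5, Ly6c1 and Kdr the order was GnT-IX-deficient at 12 weeks, then wild type at 12, 3 and 0 weeks. The tests between the genotypes at 12 weeks, between 12 and 3 weeks and between 3 and 0 weeks passed for none of them, and GnT-IX-deficient mice were not tested against wild type at 3 weeks. The lowest mean was that of 0 weeks for 9 of the 10 genes and that of 3 weeks for Slc2a1, whose 4 means spanned 0.20 in all. Over the 12 arrays, each of 8 genes had r of 0.71 to 0.93 with the mean of the other 9, Ocln had 0.63 and Slc2a1 0.39. Among the 45 pairs the median r was 0.74, the highest was 0.98 for Cdh5 and Pecam1 and the lowest 0.15 for Ocln and Slc2a1. These are descriptions over 12 arrays that share the group differences and the RMA scaling.

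The genes outside the set with the pattern most like its mean, by Pearson correlation over the 12 arrays, were mostly vessel genes. The highest was Adgrl4, an adhesion receptor of endothelium (0.97), then Abcb1a (0.95), Dll4 (0.95) and the organic anion carrier gene Slco1a4 (0.94). They were followed by Slc35f2 (0.94), Slc19a3 (0.93), Sgo1 (0.92), Ptprb (0.92), Adgrf5 (0.91) and Clic5 (0.91). Sgo1 was dim, with group means of 2.69 to 3.30, below the lower quartiles of the arrays (3.73 to 3.85). Of the 10 genes most like the mean, 7 stand on the endothelial, transporter and receptor lists, and Slc35f2, Sgo1 and Clic5 on none. This ranking uses the same 12 arrays and group differences, and the lists were chosen with earlier results known, so it adds no separate support. Abcb1a averaged 7.67 in GnT-IX-deficient arrays, 7.97 in wild-type arrays at 12 weeks, 7.22 at 3 weeks and 6.48 at 0 weeks.

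**Figure D5:**
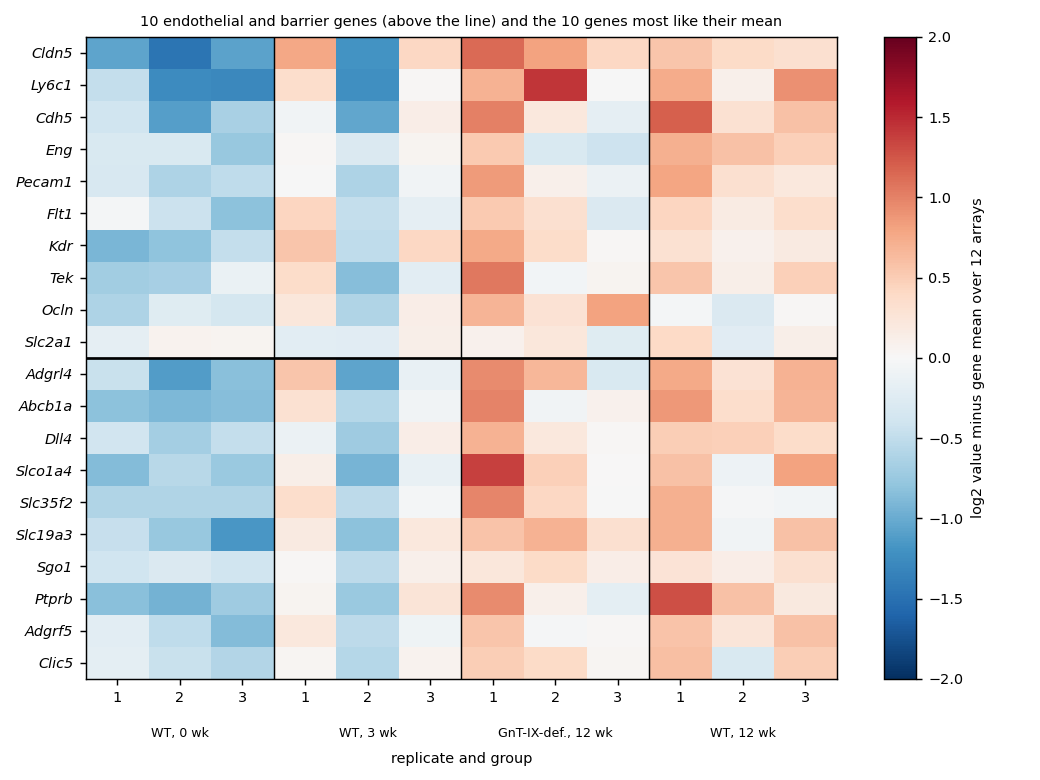
Log2 value of each gene minus its own mean over the 12 arrays (colour), for the 10 endothelial and barrier genes above the line and the 10 genes most like their mean below it. Columns are arrays by group and replicate number. Arrays at 0 weeks and replicate 2 at 3 weeks are mostly blue, and replicate 1 at 12 weeks in both genotypes is mostly red.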

How the data were processed

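RNA of GLAST-selected white matter cells was hybridised to 12 Affymetrix arrays, 3 per group. The authors used Affymetrix Expression Console 1.4 and RMA, as the submitters' processing notes say, and the deposited values are log2 signals (1.43 to 12.5). RMA makes the arrays' distributions alike and compresses differences of dim genes. RNA came from 1 of a pair of extraction kits per the labels' protocols, with the kit of each sample not given, so kit and group cannot be told apart.

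The 22206 transcript clusters were named by the platform's probe annotation and checked in RefSeq (GRCm38.p6). All 19572 clusters with 1 symbol matched by Entrez identifier, 2634 are unnamed here, and the brightest cluster was used for 55 genes with several, leaving 19505 genes with no filter. The test was that of limma 3.58.1, run in R 4.3.3 (lmFit, eBayes, two-sided, 12 arrays in one fit, 8 residual degrees of freedom, Benjamini-Hochberg over all genes, threshold 0.05), after a test on simulated data. Intervals are 95% limits from that fit, and ± gives the SD.

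The 10 genes and the 18 lists (236 of 259 genes measured) were chosen with earlier results of these data known. Named beside the 10 were Mgat5b, Slc1a3, Ly6c2, up to 4 called genes per list and comparison (else the one with the smallest p, where given) and the 10 genes most like the set's mean. The labels give no pairing by replicate number, so none was fitted in the main test. Deviations from the group means correlated at -0.28 to 0.22 in the 18 same-numbered pairs of arrays (6 over 0.1). In the other pairs they correlated at -0.30 to 0.34. These ranges overlap and do not settle whether same-numbered arrays belong together. Alternatives are given in the closing section. Figures used matplotlib 3.10.9.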

Additional observations from a re-analysis of the deposited data

How the results depend on the processing

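Each difference of the 10 genes in 5 comparisons was recomputed under 15 alternatives, 750 values in all. Of these, 674 kept their direction and their side of the threshold, 41 lost a call, 12 gained one and 23 changed sign. With only the 6 arrays compared, 7 of the 10 genes were called at 12 against 0 weeks in place of 4, while calls over all genes went to 689 in place of 514. With array weights 6 were called at 12 against 0 weeks (919 of all genes) and 2 at 3 against 0 weeks in place of 0 (887 of all genes in place of 632). Leaving out 1 array at a time gave 0 to 0 calls at 12 against 0 weeks, 0 to 2 at 3 against 0 weeks and 0 to 3 for GnT-IX-deficient mice against wild type at 0 weeks (4 with all arrays). A replicate block (the replicate number as a block) is a pairing that the labels do not give. With it, 4 genes were called at 12 against 0 weeks (442 of all genes in place of 514), with Pecam1 in place of Ly6c1 (adjusted p = 0.0329 and 0.0532). In the same setting 6 were called for GnT-IX-deficient mice against wild type at 0 weeks and 0 in the other 3 comparisons. Counts over all genes are not given here for these 6 calls or for the ranges of 0 to 2 and 0 to 3. Those counts describe the set only.

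Every sign change was of a difference with no call. The largest of these was Cldn5 at 12 against 3 weeks, at 0.42 with all arrays and -0.18 without replicate 2 of the 3-week group. With array weights Kdr was at -0.036 at 12 against 3 weeks, and with cyclic loess Slc2a1 was at -0.014 in GnT-IX-deficient mice against wild type at 0 weeks. Over single arrays left out, Slc2a1 ranged from -0.033 to 0.27 at 12 against 0 weeks and Tek from -0.040 to 0.57 at 3 against 0 weeks. At 12 against 3 weeks Cldn5 ranged from -0.18 to 0.81, Kdr from -0.29 to 0.24 and Ocln from -0.28 to 0.13. Between the genotypes Ly6c1 ranged from -0.24 to 0.47, Pecam1 from -0.45 to 0.037, Flt1 from -0.30 to 0.11, Tek from -0.38 to 0.17 and Slc2a1 from -0.23 to 0.073. Slc2a1 ranged from -0.063 to 0.17 in GnT-IX-deficient mice against wild type at 0 weeks. The causes were not tested. With 3 arrays per group, and no measure of signal over background used here, moderate changes of a gene can be missed.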
